A study of Homo sapiens with 5 samples.

Results

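The genes described here encode the machinery of oxidative phosphorylation and of protein synthesis inside mitochondria: subunits of complexes I to V, cytochrome c, factors that assemble or restrain those complexes, proteins of the mitochondrial ribosome, the elongation factor gene TUFM and the mitochondrial transcription factor gene TFAM. They were chosen by gene symbol alone (symbols that start with NDUF, UQCR, ATP5, MRPL, MRPS, or COX and a digit, the SDH subunit genes, and CYC1, CYCS, TUFM, TSFM and TFAM, where present), on probe sets that carry 1 symbol. The rule found 86 probe sets for 85 of the 7713 genes measured, and TFAM, the 1 gene with 2 probe sets, is given by the brighter. TSFM, SDHA, SDHB and genes encoded by mitochondrial DNA were not analysed here.

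All arrays hold RNA of KMH2, an established human Hodgkin lymphoma cell line. In the LY294002 group (2 arrays) the cells had been cultured for 16 hours with 30 uM LY294002, which blocks phosphoinositide 3-kinase (PI3K) and is also known to bind mTOR and BET bromodomain proteins. In the DMSO group (3 arrays) they had been cultured for 16 hours with the solvent. Triplicates were planned, and the submitters dropped 1 array for high background. Every sample is the same cell line, so the comparison shows a response of KMH2 cells only. The labels do not state whether replicates came from separate cultures, and the p-values therefore measure a spread among these arrays that may be technical only. Values are log2 probe set signals as deposited, and a log2 fold change is the LY294002 mean minus the DMSO mean, given with its standard error from limma (2 and 3 arrays).

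Array medians lay between 6.26 and 6.29, and the upper quartile was 7.69 and 7.62 on the LY294002 arrays, against 7.59 to 7.62 on the DMSO arrays. Pearson's r across probe sets was 0.996 to 0.998 within groups and 0.989 to 0.992 between them. Of the markers of Hodgkin cells, 8 of 9 lay above the median signal of all genes, as did 2 of 5 B cell and 5 of 6 T cell markers. Of the other markers, 0 of 2 monocyte, 0 of 4 granulocyte, 1 of 1 erythroid and 2 of 4 fibroblast and stroma markers lay above it. Among the Hodgkin cell markers, IRF4 averaged 8.89 in LY294002 cells and 8.23 in DMSO cells and was the 1 that passed (limma adjusted p = 0.0473), while TNFRSF8, the CD30 gene, averaged 7.55 in LY294002 cells and 8.23 in DMSO cells (adjusted p = 0.157). Among the B cell markers BLNK fell, at 5.67 in LY294002 cells and 7.14 in DMSO cells (adjusted p = 0.0419), and MS4A1 averaged 9.42 in LY294002 cells and 10.42 in DMSO cells (adjusted p = 0.073). The part of these markers in the results was not tested. The mean signal was at or above the upper quartile of all probe sets in 64 of 85 members, the range in which LY294002 replicate 1 had the highest quartile. The median over the members themselves was 8.34 and 8.39 on the LY294002 arrays, against 8.41, 8.43 and 8.56 on the DMSO arrays, so it was lowest on that array.

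Oxidative phosphorylation passes electrons from NADH (complex I) and succinate (complex II) through ubiquinone, complex III and cytochrome c to oxygen at complex IV, and ATP synthase (complex V) uses the proton gradient that this builds. Most subunits are made in the cytosol from nuclear genes and imported. The remaining subunits are encoded by mitochondrial DNA and made by the mitochondrial ribosome, whose own proteins are all nuclear-encoded. In other cells, mTOR is known to promote the expression and the translation of such genes, and the factors NRF1 and GABPA (an Ets factor) are known to bind the promoters of many of them.

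Some promoters of the members hold sequence features that the rule did not use. A promoter window (250 bases before to 50 after the transcription start, RefSeq, GRCh38.p14, the first listed start of each gene) was found for 74 of the 85 members and for 15843 protein-coding genes. On either strand, the Ets motif CCGGAAG was in 25 of the 74 windows (33.8%), against 14.2% of the windows of all protein-coding genes. The core of the NRF1 site, CGCATGCG, was in 10 (13.5%) against 2.88%. The E-box CACGTG, bound by MYC, was in 5 (6.76%) against 8.88%. In 40 of the 74 windows all 3 motifs were absent. None of the 3 motifs contains another, and a match is a description of the sequence, not a site shown to be bound. The median log2 fold change was -0.038 over the 25 members with the Ets motif, and -0.020 over the 49 without it. It was 0.012 over the 10 members with the NRF1 core, and -0.028 over the 64 without it. Only windows with a motif were picked for display, so they do not stand for the members as a whole. The arrays of NDUFV2, NDUFS4, CYCS, COX7B, COX7A2, NDUFAB1 and MRPS7 also separated by group, and their windows hold none of the 3 motifs. The 120 bases before the start are shown in lower case, with Ets and NRF1 motifs (or their reverse complement) in capitals. The members shown are TUFM, which fell, MRPL3, NDUFS3, NDUFA1 and MRPL58, whose arrays separated by group, and SDHD and MRPL17, which carry the NRF1 core.
TUFM (chr16:28846349-28846468, minus strand): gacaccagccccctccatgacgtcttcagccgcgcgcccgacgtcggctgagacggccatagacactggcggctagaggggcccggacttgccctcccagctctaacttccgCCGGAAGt
MRPL3 (chr3:131502972-131503091, minus strand): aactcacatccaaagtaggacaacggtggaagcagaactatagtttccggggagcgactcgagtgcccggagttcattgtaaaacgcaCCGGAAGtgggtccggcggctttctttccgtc
NDUFS3 (chr11:47578954-47579073, plus strand): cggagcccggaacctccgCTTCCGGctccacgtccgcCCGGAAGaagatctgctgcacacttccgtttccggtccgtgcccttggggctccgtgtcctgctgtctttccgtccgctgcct
NDUFA1 (chrX:119871712-119871831, plus strand): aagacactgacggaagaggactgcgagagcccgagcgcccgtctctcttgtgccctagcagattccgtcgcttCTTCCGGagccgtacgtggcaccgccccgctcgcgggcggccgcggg
MRPL58 (chr17:75012550-75012669, plus strand): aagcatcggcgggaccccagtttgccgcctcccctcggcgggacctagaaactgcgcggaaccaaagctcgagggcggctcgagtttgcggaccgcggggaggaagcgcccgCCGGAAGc
SDHD (chr11:112086753-112086872, plus strand): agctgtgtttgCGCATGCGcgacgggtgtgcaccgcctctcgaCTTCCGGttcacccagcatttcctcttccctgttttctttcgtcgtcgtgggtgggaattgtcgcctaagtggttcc
MRPL17 (chr11:6683341-6683460, minus strand): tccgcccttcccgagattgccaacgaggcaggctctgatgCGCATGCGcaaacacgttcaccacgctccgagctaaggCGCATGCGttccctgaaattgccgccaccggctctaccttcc

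The Ets motif starts 8 bases before the transcription start in TUFM and in MRPL58, 32 before it in MRPL3 and 47 before it in NDUFA1. NDUFS3 has it at 102 and 83 bases before the start, and MRPL58 has a further one at 193, outside the bases shown. SDHD has the NRF1 core at 109 and the Ets motif at 77 bases before it, and MRPL17 has the NRF1 core at 80 and 42 bases before it. The members that share the Ets motif did not share a direction: TUFM and MRPL3 had negative log2 fold changes, and MRPL58 a positive one.

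Setting LY294002 cells against DMSO cells addresses how transcript levels respond to the compound. For oxidative phosphorylation and the mitochondrial ribosome the differences were small. Of 85 members, 1 fell and 0 rose (limma adjusted p under 0.05, Benjamini-Hochberg over all 8746 probe sets), which is 1.18% of members against 0.908% of all genes (0.609% higher and 0.298% lower). At an unadjusted limma p under 0.05, 3 members were higher (3.53%, against 10.6% of all genes) and 11 were lower (12.9%, against 6.5% of all genes; 17.1% of all genes in either direction). The log2 fold changes ran from -0.46 (MRPL3) to 0.38 (NDUFV2), and their median was -0.028, beside -0.011 over all genes. In RNA of whole cultures, less of a transcript per cell and fewer cells that hold it cannot be told apart. The 95% interval of the fold change lay inside 1.5-fold in both directions for 81 members (95.3%, against 89.8% of all genes), so for most members a change of that size lay outside the interval. Both LY294002 arrays were below all DMSO arrays in 18 members (21.2%, against 13.4% of all genes) and above them in 9 (10.6%, against 16.2%), and 29.6% of all genes were apart in either direction.

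**Figure D1:**
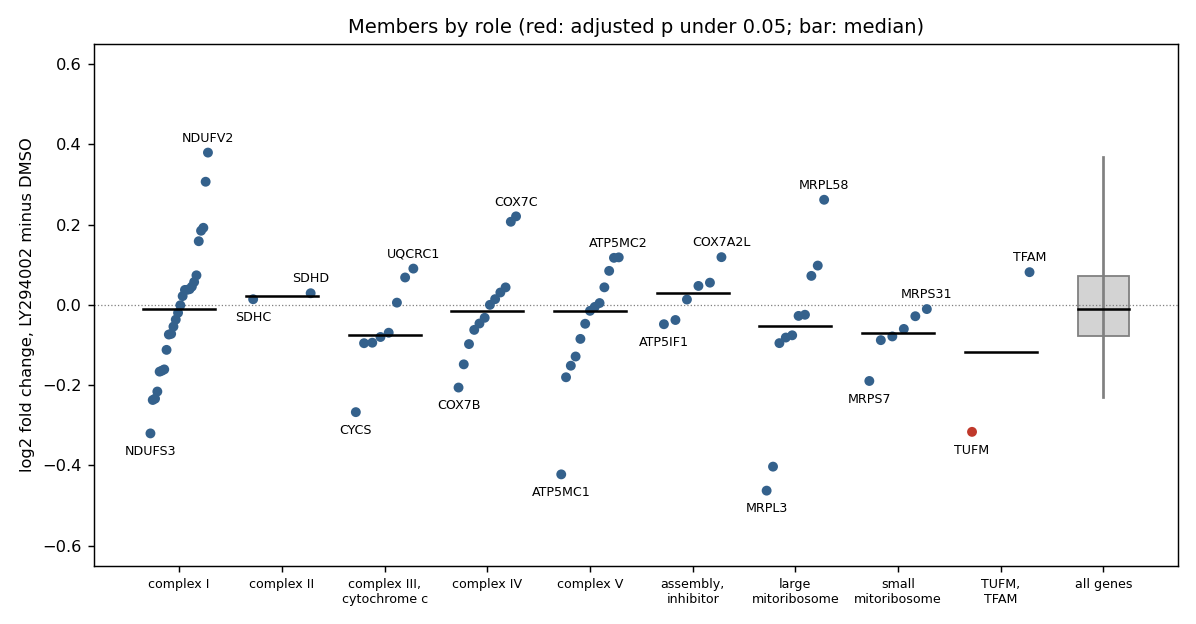
Each point is the log2 fold change (LY294002 minus DMSO, y axis) of 1 of the 85 members, grouped by role, with the median of each role as a black bar and the genes at either end named; the grey box holds the middle 50% of all 7713 genes and its line the 5th to 95th percentile (-0.23 to 0.37). The 1 red point, TUFM at -0.32, is the member that passed, and the other members lie between -0.46 and 0.38.

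TUFM, which encodes the factor that brings aminoacyl-tRNA to the mitochondrial ribosome, was the member that fell (Entrez gene 7284). Its log2 signal was 10.46 and 10.47 on the LY294002 arrays, against 10.80, 10.78 and 10.76 on the DMSO arrays. The groups did not overlap, and the arrays of each group lay within 0.04 of each other. The log2 fold change was -0.32 ± 0.03 (19.7% lower; limma adjusted p = 0.0348). Without DMSO replicate 1, 2 or 3 the limma adjusted p was 0.099, 0.17 and 0.161, above the threshold. In those fits 0.0519%, 0% and 0% of all genes passed, so the loss was not particular to TUFM. With each of the 5 arrays left out in turn, the log2 fold change of TUFM stayed between -0.33 and -0.31. TFAM, which packages mitochondrial DNA and starts its transcription, was at 6.20 and 6.11 with LY294002, against 6.09, 6.09 and 6.05 with DMSO (log2 fold change 0.08 ± 0.04, adjusted p = 0.396). Its LY294002 arrays lay just above the DMSO arrays, and its other probe set also had a positive log2 fold change, 0.15 (adjusted p = 0.479).

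**Figure D2:**
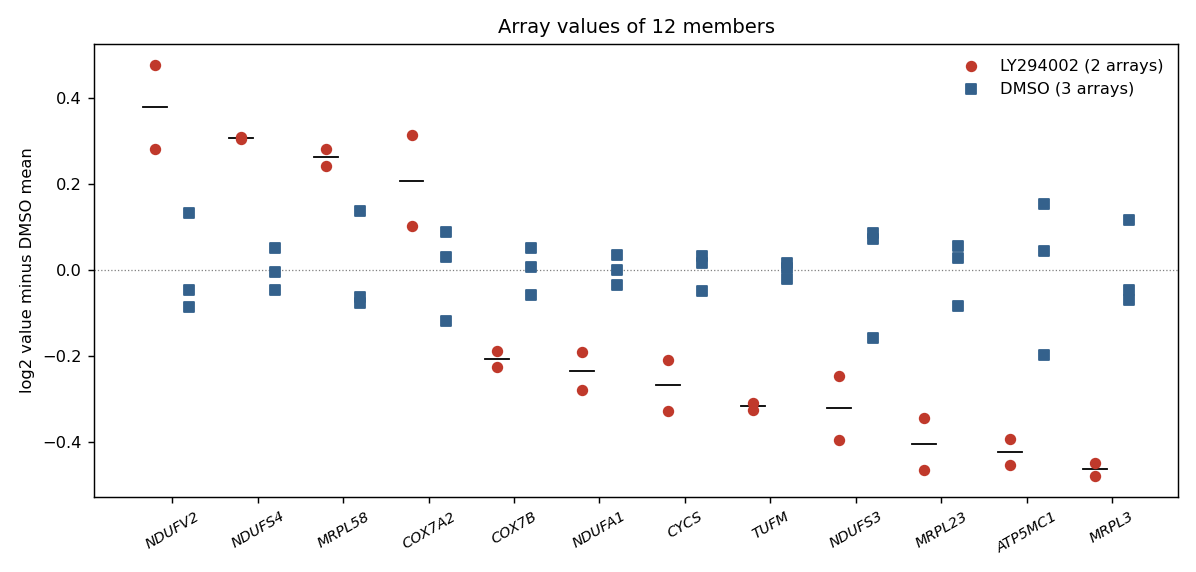
Log2 signal of 12 members on each array, minus the mean of the 3 DMSO arrays (y axis), with LY294002 arrays as red circles, DMSO arrays as blue squares and the LY294002 mean as a short line. All 12 genes shown are members with separated groups, so no LY294002 point falls among the DMSO points. They do not stand for the members as a whole. Of the 85 members, both LY294002 arrays lay below all DMSO arrays in 18 and above them in 9. Among all genes 29.6% were apart in either direction. For TUFM the spread within each group is small beside the gap of 0.32.

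Complex I, the NADH dehydrogenase at the entry of the chain, had 26 members, with log2 fold changes from -0.32 to 0.38 and a median of -0.010. None of the 26 passed in either direction in limma, and 12 had a positive log2 fold change and 14 a negative one. At an unadjusted limma p under 0.05, 2 of the 26 were higher (7.69%, against 10.6% of all genes) and 3 lower (11.5%, against 6.5%). The arrays separated by group in 10 of them, 4 higher (15.4%, against 16.2% of all genes) and 6 lower (23.1%, against 13.4%) with LY294002. Members on opposite sides belonged to the same complex.

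NDUFV2, an iron-sulfur subunit of the NADH-oxidising part, was at 7.69 and 7.50 on the LY294002 arrays, against 7.17, 7.35 and 7.13 on the DMSO arrays (log2 fold change 0.38 ± 0.10, limma adjusted p = 0.165). NDUFS4, an accessory subunit of the same part that is mutated in Leigh syndrome, was at 7.65 and 7.65 with LY294002, against 7.34, 7.39 and 7.29 with DMSO (0.31 ± 0.04, adjusted p = 0.0576). In both genes the LY294002 arrays lay above every DMSO array. NDUFA2, also of that part, had a log2 fold change of 0.19 ± 0.07 (adjusted p = 0.299), but its core partners NDUFV1 and NDUFS1 had -0.07 ± 0.05 (0.447) and -0.07 ± 0.06 (0.506). NDUFS6, an accessory subunit of the same part, had -0.16 ± 0.06 (adjusted p = 0.288), with its LY294002 arrays below all DMSO arrays.

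On the other side, NDUFS3, a core subunit of the part that passes electrons on to ubiquinone, was at 8.57 and 8.71 with LY294002, against 8.80, 9.04 and 9.03 with DMSO (-0.32 ± 0.10, limma adjusted p = 0.217). NDUFA1, an accessory subunit of the membrane arm, was at 9.02 and 8.93, against 9.24, 9.18 and 9.21 with DMSO (-0.23 ± 0.04, adjusted p = 0.0968). Both genes had their LY294002 arrays below all DMSO arrays. NDUFAB1, the acyl carrier protein of mitochondria and also a complex I subunit, was at 10.62 and 10.64 with LY294002, against 10.72, 11.03 and 10.86 with DMSO (-0.24 ± 0.10, adjusted p = 0.326), without overlap of the groups.

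Complex II was represented by its membrane anchor genes. SDHC was at 7.31 on both LY294002 arrays, against 7.26, 7.31 and 7.31 on the DMSO arrays (log2 fold change 0.014 ± 0.03, limma adjusted p = 0.806). SDHD was at 7.52 and 7.50, against 7.50, 7.50 and 7.44 with DMSO (0.029 ± 0.03, adjusted p = 0.647). The groups overlapped in both genes, and the 95% interval of the log2 fold change was -0.07 to 0.09 for SDHC and -0.06 to 0.12 for SDHD.

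In complex III and cytochrome c 0 of 8 members passed (0.908% of all genes did). The median log2 fold change was -0.075, and 3 were above 0 (37.5%, against 44.1% of all genes). CYCS, the gene of cytochrome c, which carries electrons to complex IV and triggers caspases when released, had the lowest value. It was at 10.29 and 10.17 on the LY294002 arrays, against 10.45, 10.51 and 10.53 on the DMSO arrays, so the groups were apart (-0.27 ± 0.05, limma adjusted p = 0.106). It was the 1 gene of this class with separated groups (12.5% lower, against 13.4% of all genes, and 0% higher, against 16.2%). CYC1, the cytochrome c1 subunit, was at 8.55 and 8.41, against 8.26, 8.55 and 8.62 with DMSO (0.0055 ± 0.13, adjusted p = 0.987), where DMSO replicate 1 was the lowest of all arrays. The core subunit genes UQCRC1 and UQCRC2 had log2 fold changes of 0.09 ± 0.05 (adjusted p = 0.438) and 0.07 ± 0.05 (0.463).

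Complex IV, cytochrome c oxidase, had 12 members with a median log2 fold change of -0.016 and 0 past the threshold in limma. At an unadjusted limma p under 0.05, 0 of the 12 were higher (10.6% of all genes were) and 1 was lower (8.33%, against 6.5%). COX7B, a small subunit, was at 9.48 and 9.52 with LY294002, against 9.65, 9.76 and 9.71 with DMSO (-0.21 ± 0.04, limma adjusted p = 0.123). COX7A2, the broadly expressed form of subunit 7A, was at 9.55 and 9.34, against 9.27, 9.12 and 9.33 with DMSO (0.21 ± 0.09, adjusted p = 0.382). The LY294002 arrays lay below all DMSO arrays for COX7B and above them for COX7A2. COX7C, another small subunit, had the highest log2 fold change among the 12, 0.22 (adjusted p = 0.402). COXFA4, whose symbol the rule does not match, is not among the 12. It had a mean signal of 9.02 and a log2 fold change of -0.22. COX4I1, the broadly expressed form of subunit 4, was at 10.35 on both LY294002 arrays, against 10.26, 10.31 and 10.38 with DMSO (0.031 ± 0.05, adjusted p = 0.715).

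The isoform genes known from heart and skeletal muscle did not separate the groups. COX6A2 had the value 7.17 on all 5 arrays, so its log2 fold change was 0. COX7A1 was at 5.34 and 5.50 with LY294002, against 5.50, 5.50 and 5.55 with DMSO (-0.10 ± 0.06, limma adjusted p = 0.444). Exactly repeated values within a group occurred in 26 of the 85 members (30.6%) and in 38.1% of all genes, and they make the spread within a group look small.

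Complex V, ATP synthase, had 13 members with a median log2 fold change of -0.015 and 0 past the threshold in limma. At an unadjusted limma p under 0.05, 0 of the 13 were higher (10.6% of all genes were) and 2 were lower (15.4%, against 6.5%). The arrays separated by group in 5 of them, 1 higher (7.69%, against 16.2% of all genes) and 4 lower (30.8%, against 13.4%). The 3 genes ATP5MC1, ATP5MC2 and ATP5MC3 encode the same mature subunit c of the proton-driven ring, with different targeting peptides. ATP5MC1 was at 8.21 and 8.15 on the LY294002 arrays, against 8.41, 8.76 and 8.65 on the DMSO arrays (-0.42 ± 0.11, limma adjusted p = 0.178). ATP5MC2 was at 9.63 and 9.57, against 9.36, 9.52 and 9.57 with DMSO (0.12 ± 0.07, adjusted p = 0.45), and ATP5MC3 at 10.88 and 10.92, against 10.93, 11.13 and 11.11 (-0.15 ± 0.07, adjusted p = 0.4). Each of the 3 had its LY294002 arrays outside the DMSO range, ATP5MC2 above it and the other two below it, by narrow margins in ATP5MC2 and ATP5MC3. ATP5F1A and ATP5F1B, the genes of the alpha subunit and the catalytic beta subunit, had log2 fold changes of 0.12 ± 0.07 (adjusted p = 0.447) and -0.13 ± 0.08 (0.452). ATP5PF, a subunit of the stalk, was at 8.98 and 8.95, against 9.19, 9.18 and 9.06 with DMSO (-0.18 ± 0.05, adjusted p = 0.19).

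Of the 6 assembly factors and regulators, 0 passed and none had separated groups (29.6% of all genes had), and their log2 fold changes ran from -0.048 to 0.12. ATP5IF1, the inhibitor that keeps ATP synthase from consuming ATP, was at 7.96 and 7.93 with LY294002, against 7.96, 8.11 and 7.90 with DMSO (-0.048 ± 0.07, limma adjusted p = 0.714). COX7A2L, a factor of respiratory supercomplexes, was at 10.06 and 10.10, against 10.25, 9.89 and 9.74 with DMSO (0.12 ± 0.16, adjusted p = 0.695), so its DMSO arrays spread over a wider range than the LY294002 arrays. The heme A synthesis genes COX10 and COX15, the copper chaperone gene COX11 and COX20, a chaperone of a mitochondrially encoded complex IV subunit, had log2 fold changes between -0.038 and 0.055.

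The mitochondrial ribosome had 16 members, of which 13 had a negative and 3 a positive log2 fold change (18.8% positive, against 44.1% of all genes). Subunits were assigned by symbol alone, MRPL to the large and MRPS to the small, which need not match the place of every protein. The median was -0.052 over the 10 genes so assigned to the large subunit and -0.069 over the 6 assigned to the small subunit. None of the 16 passed in limma, and at an unadjusted p under 0.05, 1 was higher (6.25%, against 10.6% of all genes) and 3 lower (18.8%, against 6.5%). The number above 0 was 3 of 16 after median centring, 3 after quantile normalization and 4 after cyclic loess. For complexes I to V the share above 0 was 44.3% with the deposited values and after median centring. It was 24.6% after quantile normalization and 39.3% after cyclic loess. After quantile normalization the mitoribosome (18.8%) thus lay closer to complexes I to V than with the deposited values.

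MRPL3, a protein of the large subunit, had the lowest log2 fold change of all members. It was at 9.82 and 9.79 on the LY294002 arrays, against 10.22, 10.38 and 10.20 on the DMSO arrays (-0.46 ± 0.07, 27.4% lower, limma adjusted p = 0.0718). MRPL23, also of the large subunit, was at 8.05 and 7.93, against 8.42, 8.31 and 8.45 with DMSO (-0.40 ± 0.06, adjusted p = 0.077). In both genes the gap between the groups was wider than the spread within either. MRPL58, a peptidyl-tRNA hydrolase built into the large subunit that frees stalled chains, was at 7.33 and 7.29 with LY294002, against 6.97, 7.19 and 6.99 with DMSO (0.26 ± 0.08, adjusted p = 0.211), above all DMSO arrays. MRPL17, whose promoter holds a pair of NRF1 cores, had -0.10 ± 0.05 (adjusted p = 0.408).

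In the small subunit, MRPS7 was at 7.79 and 7.94 with LY294002, against 8.04, 8.10 and 8.03 with DMSO (-0.19 ± 0.06, limma adjusted p = 0.207). It was the 1 gene of the 6 with separated groups (16.7% lower, against 13.4% of all genes, and 0% higher, against 16.2%). MRPS12 was at 7.75 and 7.74, against 7.47, 7.96 and 8.03 with DMSO (-0.08 ± 0.19, adjusted p = 0.83), where DMSO replicate 1 lay below all other arrays. The remaining small subunit genes had log2 fold changes between -0.088 (MRPS15) and -0.011 (MRPS31).

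**Figure D3:**
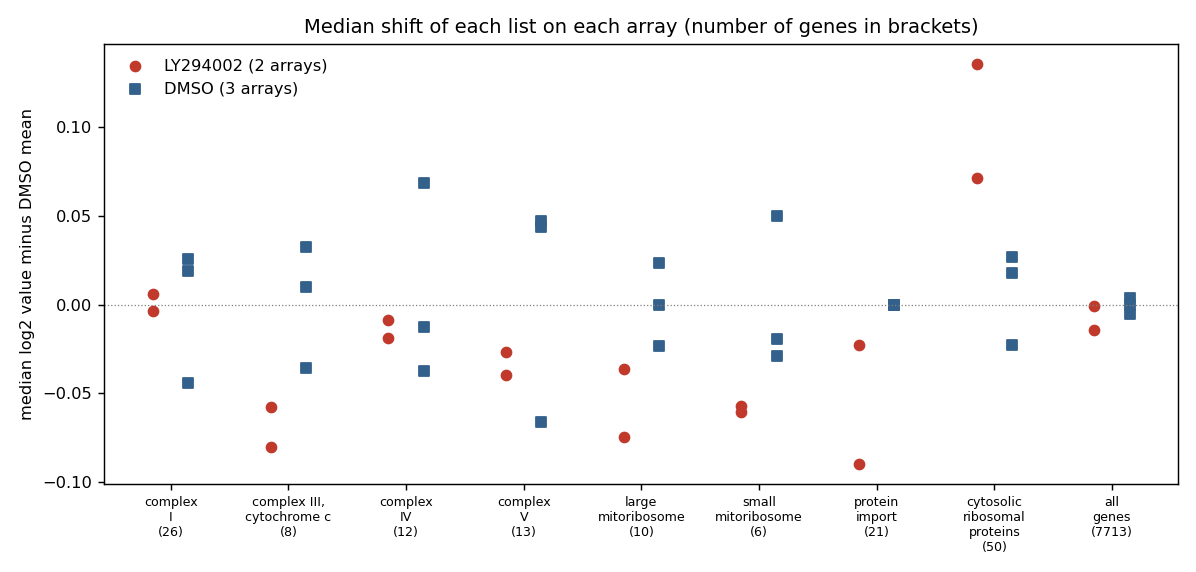
For each list (x axis, number of genes in brackets) the median over its genes of the log2 signal minus the DMSO mean is drawn for each LY294002 array (red circles) and each DMSO array (blue squares). The complex I, IV and V medians of the LY294002 arrays lie within the range of the DMSO arrays, those of complex III with cytochrome c (-0.080 and -0.058) and of both mitoribosomal subunits (-0.036 to -0.075) lie below it, and those of cytosolic ribosomal proteins above it, at 0.07 and 0.14.

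Array by array, the median shift of the large mitoribosomal subunit was -0.036 and -0.075 on the LY294002 arrays, against -0.024, 0 and 0.023 on the DMSO arrays. For the small subunit it was -0.057 and -0.061, against -0.029, 0.050 and -0.019. For complex III and cytochrome c it was -0.080 and -0.058, against -0.036, 0.0099 and 0.032. Complex I stood at 0.0061 and -0.0034, against -0.044, 0.025 and 0.019, and complex V at -0.027 and -0.040, against -0.066, 0.047 and 0.044. The LY294002 arrays thus lay below the DMSO range for both ribosomal subunits and for complex III with cytochrome c, and inside it for complexes I and V. These shifts are smaller in size than the log2 fold changes of MRPL3 (-0.46), MRPL23 (-0.40) and CYCS (-0.27). Several other named genes changed less than the largest of these shifts, such as CYC1 (0.0055) and MRPS31 (-0.011). The difference between the classes was not tested. The 50 genes of cytosolic ribosomal proteins, given for comparison, had a median log2 fold change of 0.11. Of them 44 were above 0 (88%, against 44.1% of all genes) and 0 passed the threshold (0.908% of all genes did). Their LY294002 arrays lay above all DMSO arrays in 27 (54%, against 16.2% of all genes) and below them in 1 (2%, against 13.4%). At an unadjusted limma p under 0.05, 13 were higher (26%, against 10.6%) and 0 lower (6.5% of all genes were). The median of the 50 was 0.044 after quantile normalization, where 35 were above 0 (70%, against 44.4% of all genes). Their largest log2 fold change was 0.51 ± 0.20, for RPL36 (limma adjusted p = 0.305).

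**Figure D4:**
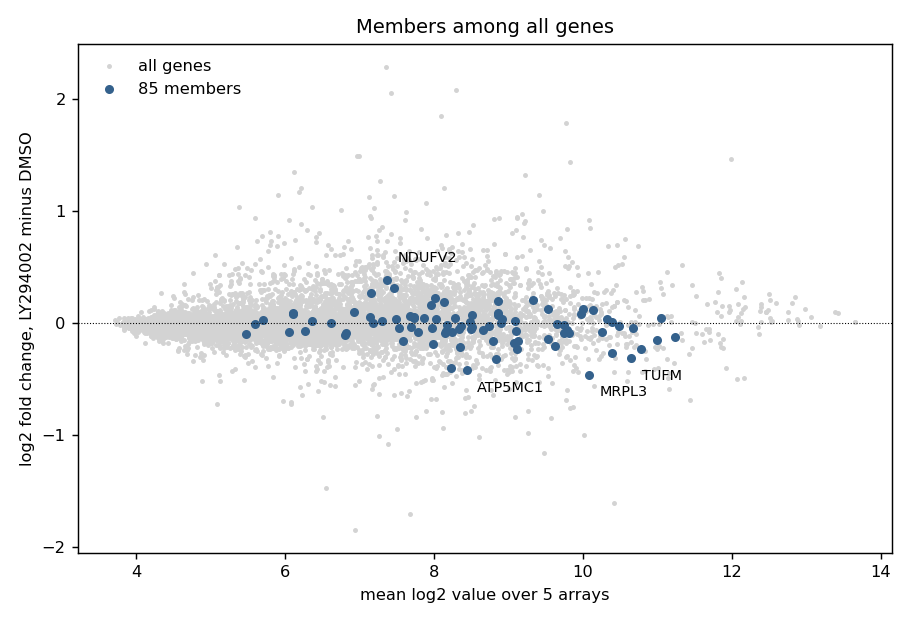
Mean log2 signal over the 5 arrays (x axis) against the log2 fold change of LY294002 minus DMSO (y axis), with all 7713 genes in grey and the 85 members in blue. The members lie mostly in the brighter part of the range. Of the labelled genes, TUFM, MRPL3 and ATP5MC1 lie below the 5th percentile of all genes (-0.23) and NDUFV2 just above the 95th (0.37). The unlabelled members MRPL23, NDUFS3, CYCS, NDUFAB1 and NDUFA1 also lie below the 5th percentile, and no other member lies above the 95th. All are within the full range of the grey points (-1.85 to 2.28).

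Genes that serve the same machinery from outside the rule were examined as lists. Over all genes 0.908% passed, so a count of 0 in lists this short says little. Of 7 further assembly factors 0 passed. SURF1, a factor for complex IV, was at 9.29 and 9.18 on the LY294002 arrays, against 8.47, 8.44 and 8.68 on the DMSO arrays, without overlap (0.70 ± 0.09, limma adjusted p = 0.0551). Of 9 genes for upkeep and transcription of mitochondrial DNA 0 passed, with a median log2 fold change of 0.10. SSBP1, which coats its unwound strands, was at 9.57 and 9.51, against 9.69, 9.81 and 9.85 with DMSO (-0.24 ± 0.06, adjusted p = 0.152), below all DMSO arrays.

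Of 13 regulators of mitochondrial biogenesis 0 passed (0.908% of all genes did), and their median log2 fold change was 0.0018. The LY294002 arrays lay above all DMSO arrays in 3 (23.1%, against 16.2% of all genes) and below them in 3 (23.1%, against 13.4%). PPARGC1A had a log2 fold change of -0.042 ± 0.04 (limma adjusted p = 0.536), NRF1 of 0.034 ± 0.07 (0.792) and GABPA of 0.14 ± 0.07 (0.408). The mean signal of these genes was low, at 4.43, 5.43 and 5.48, below the median of all probe sets (6.27). Their log2 fold changes may therefore say little about their transcripts. GABPB1, the partner of GABPA, was at 7.73 and 7.65 with LY294002, against 7.40, 7.23 and 7.25 with DMSO (0.39 ± 0.07, adjusted p = 0.0827), above all DMSO arrays. SIRT1, a deacetylase that acts on PPARGC1A, was at 7.09 and 6.90, against 6.51, 6.15 and 6.23 with DMSO (0.70 ± 0.13, adjusted p = 0.102), also above all of them. ATF5, a factor of the mitochondrial unfolded protein response, was at 8.22 and 7.83, against 9.77, 8.34 and 8.34 with DMSO (-0.79 ± 0.52, adjusted p = 0.459), and DMSO replicate 1 lay far above the other DMSO arrays.

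In a list of 6 genes that charge mitochondrial tRNA (5 synthetase genes and GATB, a subunit of an amidotransferase), 1 rose and 0 fell, where 0.609% of all genes rose. FARS2, which charges mitochondrial tRNA with phenylalanine, was at 9.53 and 9.51 on the LY294002 arrays, against 9.07, 9.01 and 9.05 on the DMSO arrays (0.48 ± 0.03, limma adjusted p = 0.021). Without DMSO replicate 1, 2 or 3 the limma adjusted p of FARS2 was 0.0858, 0.141 and 0.141, above the threshold too. In those fits 0.0519%, 0% and 0% of all genes passed. With each array left out in turn, the log2 fold change of FARS2 was 0.46 to 0.49. GARS1 and KARS1, which serve the cytosol as well, had -0.37 ± 0.26 (adjusted p = 0.475) and -0.19 ± 0.07 (0.295). Of 4 translation factors and ribosome-bound proteins 0 passed. C1QBP, a matrix protein needed for mitochondrial translation, was at 8.33 and 8.21, against 8.65, 8.66 and 8.72 with DMSO (-0.40 ± 0.05, adjusted p = 0.0539), below all DMSO arrays. DAP3, a protein of the small mitoribosomal subunit whose symbol the rule does not match, was at 9.02 and 8.99, against 8.75, 8.90 and 8.84 with DMSO (0.18 ± 0.05, adjusted p = 0.217), above all DMSO arrays.

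Of 21 protein import and matrix chaperone genes 0 passed in limma, with 0 higher (10.6% of all genes were) and 4 lower (19%, against 6.5%) at an unadjusted p under 0.05. A log2 fold change above 0 was found in 5 of the 21 (23.8%, against 44.1% of all genes), and the median was -0.062. HSPA9, the HSP70 of the import motor, was at 8.18 and 7.96 with LY294002, against 8.77, 8.74 and 8.67 with DMSO (-0.66 ± 0.08, limma adjusted p = 0.0536). HSPD1 and HSPE1, which form the matrix chaperonin, had log2 fold changes of -0.32 ± 0.06 (adjusted p = 0.0962) and -0.37 ± 0.05 (0.0599). In these 3 chaperone genes the LY294002 arrays lay below every DMSO array, but DNAJA3, the HSP40 co-chaperone of HSPA9, had -0.068 ± 0.07 (adjusted p = 0.584) with overlapping groups. The translocase gene TIMM17A had -0.043 ± 0.04 (adjusted p = 0.566). TIMM10B was at 7.58 and 7.30, against 7.26, 7.14 and 6.89 with DMSO (0.34 ± 0.15, adjusted p = 0.354), above all DMSO arrays.

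How many members passed depended on how the arrays were scaled and fitted. After quantile normalization 6 of 85 members passed (7.06%, against 3.88% of all genes): TUFM, CYCS, MRPL3, MRPL23 and NDUFA1 were lower and NDUFS4 was higher. After cyclic loess 5 passed (5.88%, against 3.42% of all genes), the same genes without NDUFA1. Without the dimmest 40% of probe sets 4 passed (4.88% of 82 members, against 4.37% of the genes left), TUFM, MRPL3 and MRPL23 lower and NDUFS4 higher. Without probe sets that hold repeated values 6 of 59 passed (10.2%, against 10.7% of the genes left). With median centring and with the mean of probe sets TUFM alone passed, against 1.91% and 1.13% of all genes. No member passed with a trend and robust prior (1.31% of all genes did), array weights (0.22%) or no variance moderation (0.013%). With a replicate block, 0 members and 0% of all genes passed. Without DMSO replicate 1, 0 members and 0.0519% of all genes passed. Without DMSO replicate 2 or 3, 0 members and 0% of all genes passed. Quantile normalization also took the median of all members to -0.076 and the number above 0 to 22, against 35 of 85 with the deposited values. The median of all genes then was -0.013.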

How the data were processed

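RNA of KMH2 cells was measured on Affymetrix arrays with biotin-labelled cRNA, per the labels' protocols. The deposited table holds log2 probe set values that the authors made with affy, per the submitters' processing notes. The sources used here do not give its version, background correction or summary step. Values were used as deposited, taken as already normalized. The number of arrays limits the precision.

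Of 8793 probe sets, 47 controls were left out and 8746 fitted with limma 3.58.1 (lmFit, eBayes, R 4.3.3): group as the only term, 3 residual degrees of freedom, Benjamini-Hochberg adjustment, threshold 0.05. Platform annotation gave 1 symbol to 7840 probe sets, several to 388 and none to 518. A gene was represented by its brightest probe set. Of the members, 36 rest on probe sets marked _s_at and 2 on _x_at, which can bind related transcripts, and 7 probe sets with a matching symbol among several were left out.

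Members and lists were chosen with earlier results of these data known. Genes named are members past the threshold, the highest and lowest of each role with separated groups and signal at or above the median of all probe sets (or the largest change), genes fixed by name, muscle COX isoforms, and from each other list genes past the threshold and the largest change. NDUFS4, NDUFA1, NDUFA2, NDUFV1, NDUFS1, UQCRC1, UQCRC2, ATP5MC3, ATP5F1A, ATP5F1B, ATP5PF, COX10, COX7C, COX11, COX15, COX20, COXFA4, MRPL17, MRPL23, MRPS12, MRPS15, MRPS31, PPARGC1A, NRF1, GABPA, GABPB1, GARS1, KARS1, HSPD1, HSPE1, DNAJA3, TIMM10B, NDUFS6, SIRT1, DAP3, GATB, the cell type markers named and TIMM17A lie outside that rule and were picked with their values in view. The fit was tested on simulated data. The 15 alternatives are given with their effect in the closing section. Python 3.11.15 and matplotlib 3.10.9 drew the figures.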

Additional observations from a re-analysis of the deposited data

How the results depend on the processing

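With 2 LY294002 and 3 DMSO arrays, small differences cannot be separated from the spread between arrays. The count of members that passed was 0 higher and 1 lower. It was 1 higher and 5 lower after quantile normalization, 1 and 4 after cyclic loess, 1 and 3 without the dimmest 40% of probe sets, and 2 and 4 of 59 members without probe sets that hold repeated values. It was 0 lower with an intensity trend and robust prior (TUFM adjusted p = 0.0534), with array weights (0.0682), without variance moderation (0.136), and 0 without any 1 array (range 0 to 0). It was 0 lower with the replicate block too, where TUFM stood at -0.33 (limma adjusted p = 0.358) and 0 of all genes passed. Replicate number 3 exists in the DMSO group only, so the block takes up that array. Its log2 fold changes equal those without DMSO replicate 3 (TUFM -0.327 in both), and it is not a separate check on them. Same-numbered arrays were not shown to be pairs: the correlation of their deviations was 0.0021 for number 1 and -0.21 for number 2, from 2 numbers only. Over the 15 alternatives TUFM passed in 6 and was lower in all, with adjusted p-values of 0.0186 to 0.358. Members above 0 numbered 22 after quantile normalization, 22 of 59 without repeated values, and 28 to 38 without 1 array. The median over all members was -0.076 with quantile normalization, and -0.060 both with cyclic loess and without repeated values. By role the median moved to -0.064 and -0.043 (complex I) and to -0.116 and -0.088 (large subunit) under quantile normalization and cyclic loess. It moved to -0.085 (complex V) and -0.086 (large subunit) without repeated values, and to -0.122 (small subunit) after quantile normalization. With the replicate block it was 0.010 for complex III and 0.034 for complex IV. Without 1 array it ran from -0.037 to -0.016 for all members, -0.038 to 0.0061 for complex I, -0.040 to 0.018 for complex V, -0.075 to -0.029 for the large subunit, -0.014 to 0.043 for the assembly factors, -0.092 to 0.010 for complex III, -0.048 to 0.034 for complex IV and -0.092 to -0.021 for the small subunit. Signs turned for SDHC (-0.038, -0.0039) and CYC1 (-0.064, -0.031) under quantile normalization and cyclic loess, for CYC1 with array weights (-0.024), and for COX4I1 (-0.0047) and SDHD (-0.025) under quantile normalization. Without 1 array CYC1 ran from -0.10 to 0.076 and ATP5IF1 from -0.092 to 0.012. The causes of these shifts were not tested.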
